A study of Mus musculus with 8 samples.

Results

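The comparison was DNase-seq of the DNCHD4 line against the parental 3134 line, both kept in tetracycline, so that the dominant-negative Chd4 protein was repressed in the former and absent from the latter. Its members were all hotspots of these 2 libraries, that is, regions where DNase I cuts cluster. Hotspots that overlapped by at least 1 bp were merged, which gave 49177 sites, beside 99999 sites when the lists of all 8 libraries of the series were merged. Of the 49177 sites, 33928 were listed in both libraries, 14719 in DNCHD4 only and 530 in the parental line only. The pair addresses how far 2 libraries differ when the mutant remodeler is repressed. With 1 library per group there is no replicate check and no p-value, and technical spread and a difference between the lines cannot be told apart.

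3134 is a mouse mammary epithelial cell line. The DNCHD4 line was made from 3134 cells that carry the tetracycline transactivator, by integration of a retroviral vector with triple FLAG-tagged mouse Chd4 in which a lysine was changed to cysteine. The labels do not state whether the line is 1 clone, nor whether the parental library came from the subline with the transactivator. The regulated lines were maintained in 5 μg/ml tetracycline and cells were plated with it for 48 hours in medium with stripped serum. Nuclei were cut with 60 to 80 U/ml DNase I for 3 min. The concentration used for each library is not given. The other 6 libraries are parental and DNCHD4 cells without tetracycline, and lines with inducible dominant-negative Brg1 (DNBrg1) or Snf2h (DNSnf2h) with and without it. The DNSnf2h line carries FLAG-tagged human SNF2H with a lysine changed to arginine.

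DNase I cuts DNA most readily where nucleosomes are displaced, as at active promoters, enhancers and insulators, so a dense cluster of cuts marks accessible chromatin. Chd4 is the ATPase of the NuRD complex, which couples nucleosome remodeling to histone deacetylation and is best known for limiting access to enhancers and promoters. In a system of this kind tetracycline holds the transactivator off its promoter, and the mutant protein is made once the drug is removed. Sites are given by their position on build mm9. Gene annotation and genome sequence of that build were not used here, so neither genes nor epithelial marker genes are named.

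Each site was measured in each library by its peak density, the greatest tag density listed there, which is a coverage signal scaled by the authors. The DNCHD4 list was the longer, with 48888 hotspots from a peak density of 8.05, beside 35083 hotspots from 13.02 in the parental list. A tag was worth a density of 0.179 in DNCHD4 and 0.310 in the parental library, so the median hotspot rested on 126 and 105 tags, with a counting error of 8.89% and 9.76%. At the 33928 shared sites the median ratio of DNCHD4 to parental was 1.03-fold as deposited (log2 0.04). This ratio was set to 1, and all differences below are relative to it. Hotspots had a median width of 663 bp in DNCHD4 and 674 bp in the parental list.

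Most shared sites had nearly the same density in the 2 lines. The ratio lay within 1.5-fold of the median at 30254 shared sites (89.2%), and differed by more at 3674 (10.8%). Its range from the 5th to the 95th percentile of sites was 0.668 to 1.53. The SD of the centred log2 ratio across shared sites was 0.37. The extremes were 3.10-fold higher and 4.00-fold lower in DNCHD4. Peak density in the 2 lines had a Spearman correlation of 0.94 across the 33928 shared sites. These sites share their 2 libraries and are not independent replicates.

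**Figure D1:**
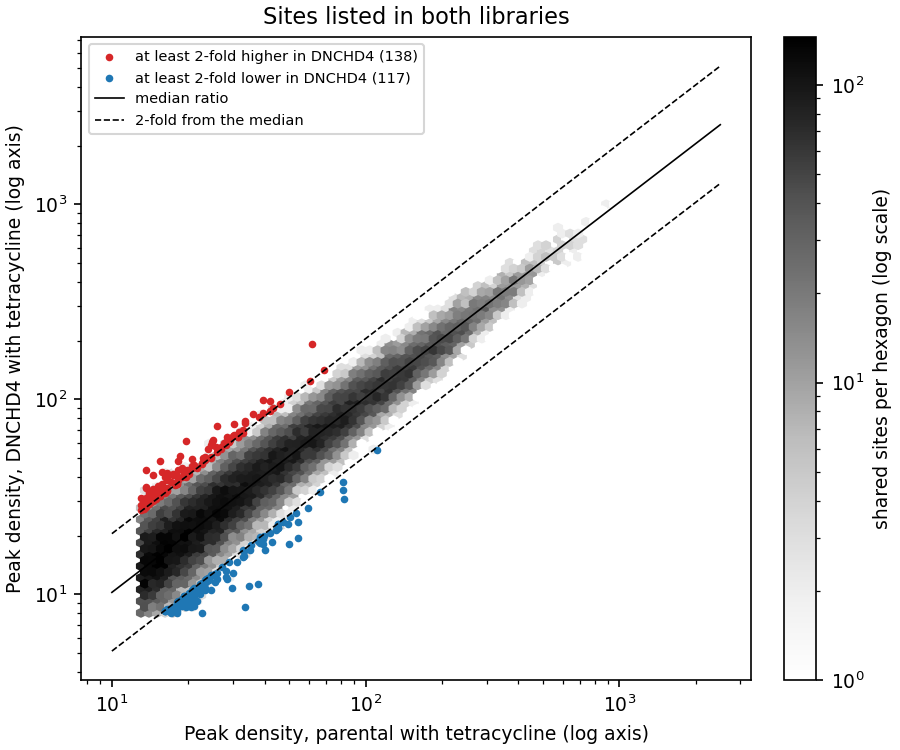
Peak density of the 33928 shared sites in parental (x axis) and DNCHD4 cells (y axis), both with tetracycline and both on log axes, with shading for the number of sites. Most sites lie between the dashed lines at 2-fold from the median ratio, and the 138 red and 117 blue sites beyond them are mostly weak or intermediate in density.

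A difference of at least 2-fold was found at 521 of the 49177 sites, or 1.06%, of which 209 (0.425%) were higher and 312 (0.634%) lower in DNCHD4. At shared sites alone, 138 (0.407%) were higher and 117 (0.345%) lower, together 0.752%. The other calls are bounds. For a site in 1 list, the weakest hotspot of the other list served as its upper limit there, which added 71 higher and 195 lower sites. As deposited, the counts were 266 higher and 266 lower, so the share of higher sites moved from 40.1% to 50% with a scaling shift of 0.04. At a common density threshold 160 sites were higher and 67 lower, so which direction had more sites depended on where the lists begin.

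The threshold of 2-fold divides a continuous distribution. Just inside it, a site on chromosome 4 from 28351277 to 28352155 had 124 in DNCHD4 and 60.5 in the parental line, and one on chromosome 3 from 107813041 to 107813717 had 64.2 and 31.3. Just outside it, a site on chromosome 13 from 96051629 to 96052241 had 10.02 and 19.5, and one on chromosome 11 from 81828433 to 81829133 had 26.7 and 13.02.

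The spread between the lines fell as sites became stronger, but less steeply than counting error. The shared sites were divided by the mean log2 density of both libraries into 10 classes of equal size. In the class with a median density of 20.3 the SD of the log2 ratio was 0.41, and in the strongest class, with a median of 199.7, it was 0.24. The counting error computed from the tags fell from 0.23 to 0.07 between these classes. Counting error therefore made up 29.9% of the variance in the former and 8.53% in the latter. The spread left after it was 0.35 and 0.23. In the weakest class, with a median of 13.7, the observed SD was 0.31 and counting error 0.27. That class is cut by both lists' thresholds and its median log2 ratio was -0.29, so its spread is not comparable with the rest.

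Counting error alone left much of the difference at strong sites unaccounted for. The 95% counting interval of the ratio left out 1 at 12686 shared sites, or 37.4%, where counting error alone would leave out about 5%. The share rose from 19.1% in the weakest class to 58.0% in the strongest, which rested on a median of 1139 tags in DNCHD4 and 643 in the parental library. The labels describe no molecular identifiers, so the intervals take in counting error alone. Sites whose interval lay wholly beyond 2-fold numbered 15 (0.0442%), 7 higher and 8 lower.

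**Figure D2:**
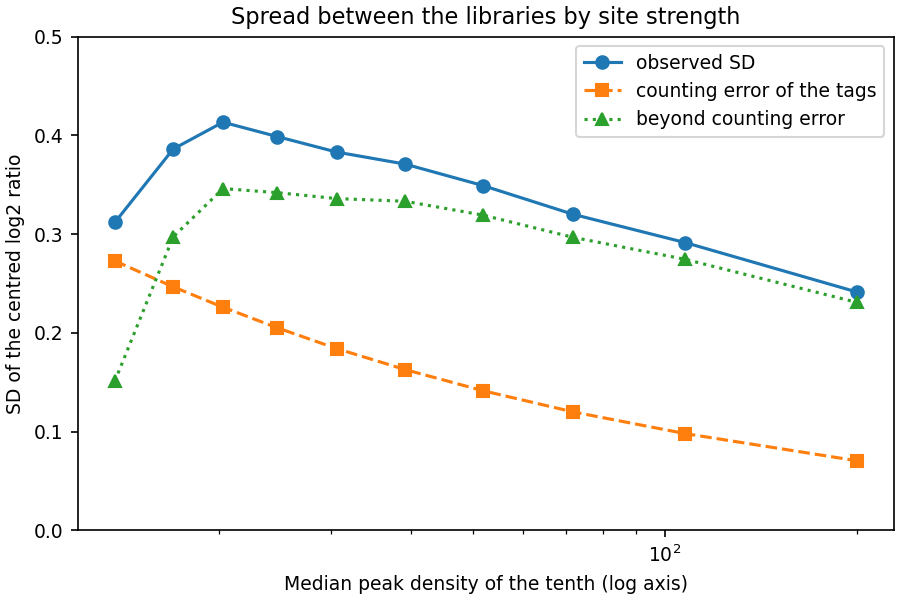
SD of the centred log2 ratio in 10 classes of shared sites, against the median peak density of the class on a log axis, with the SD from counting tags and the part beyond it. From a density of 20.3 upward all 3 lines fall, and the counting line falls fastest.

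Differences of 2-fold were found at weak and intermediate sites. In the strongest class none of 3393 sites differed 2-fold, and in the next class 3 did (0.0884%), all higher. The classes around median densities of 20.3 and 24.7 had 1.24% and 1.39%. The lower sites fell mostly at the bottom of the range, with 76 of 117 in the 2 weakest classes. No shared site in the 2 weakest classes was higher, because a site listed by the parental library cannot there stand 2-fold higher in DNCHD4. Higher sites had a median density of 41.2 in DNCHD4 and 18.1 in the parental line, and lower sites 10.7 and 23.3.

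The pair had a smaller spread than each of 3 other comparisons set beside it. The SD of the centred log2 ratio was 0.49 between DNCHD4 and parental cells without tetracycline. It was 0.46 between the 2 tetracycline states of the parental line, and 0.54 between DNBrg1 and parental cells with tetracycline. In the strongest class it was 0.28, 0.31 and 0.35 in that order, beside 0.24 here. At least 2-fold differences covered 5.03%, 4.91% and 8.57% of their sites, beside 1.06%. The last 2 comparisons share the parental library with this pair, all lists differ in depth and threshold, and the difference between them could not be tested with 1 library each.

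Whether a hotspot was found in the other list followed its density. Of the parental hotspots, 98.5% overlapped one of DNCHD4, and of the DNCHD4 hotspots 69.9% overlapped a parental one. Among DNCHD4 hotspots below a density of 10, 8.83% (95% Wilson interval 8.10 to 9.62) overlapped a parental hotspot. The share was 47.9% (46.5 to 49.3) from 13 to 16, 89.8% (88.9 to 90.6) from 20 to 26, and 99.9% from 40 to 80. Above 80, all 7712 DNCHD4 hotspots and all 7318 parental hotspots were found in the other list. Parental hotspots from 13 to 16 were found in 92.7% of cases (91.9 to 93.4), and the DNCHD4 list reaches lower.

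**Figure D3:**
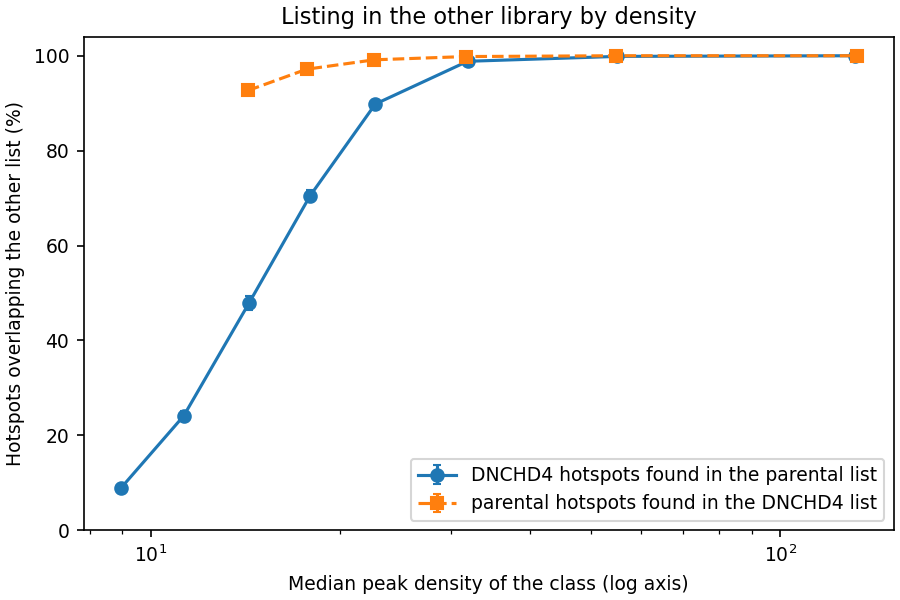
Percent of hotspots that overlap the other library's list, by peak density on a log axis, for DNCHD4 hotspots in the parental list and the reverse, with 95% Wilson intervals. The DNCHD4 line climbs from 8.83% to 100%, and the parental line runs from 92.7% to 100%.

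Sites listed in DNCHD4 only were weak, with a median density of 11.1, under the lowest density of the parental list. Hotspot numbers run in genome order and skip some numbers, for reasons the files do not state. At 8761 of 14699 such sites (59.6%) the parental numbering skips a number, and at 16 of the 71 called higher (22.5%). Of all intervals between parental hotspots, 18.4% skip a number, but longer intervals hold more sites, so the shares are not directly comparable. The DNCHD4 library without tetracycline listed 61.0% of these sites and the parental library without it 22.3%. In no other library were 4115 of them (28.0%) listed.

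Sites listed in the parental line only were also weak, with a median of 14.6 and a highest value of 33.2. The DNCHD4 library without tetracycline listed 364 of these 530 sites (68.7%), and the parental library without it 122 (23.0%). That DNCHD4 list is the longest of the series and begins at 5.09, and the parental one begins at 10.04. Their absence from the DNCHD4 list with tetracycline was thus not repeated in the same line for most of these sites. Of the 195 lower sites called by a bound, 42 (21.5%) lay within 500 bp of a DNCHD4 hotspot, beside 73 of all 530 (13.8%). Of the 71 higher sites called by a bound, 18 (25.4%) lay within 500 bp of a parental hotspot. Among all 14719 sites listed in DNCHD4 only it was 9.04%.

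The pair without tetracycline holds the same 2 lines in libraries that took no part in the calls. Tetracycline removal induces the mutant protein in DNCHD4 cells there, so it is not a plain repeat. At 28592 sites listed in all 4 libraries, the log2 ratio of the pair with tetracycline had a Pearson correlation of -0.06 with that of the pair without (Spearman -0.09). The 2 ratios share no library. In the strongest class the correlation was -0.13 across 3393 sites, where counting error was smallest. Of the 138 higher sites, 103 had values in both libraries without tetracycline, and 63 of them (61.2%, interval 51.5 to 70.01) stood above the median ratio there. Of the 117 lower sites, 83 had values and 45 (54.2%) stood below it. Among all shared sites 51.5% stood above it.

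Most of the size of the differences did not carry over. The 103 higher sites had a median log2 ratio of 1.08 with tetracycline and 0.09 without, and the 83 lower sites -1.09 and -0.07. Without tetracycline 8 of the 103 were still higher by the 2-fold rule, and 3 were lower. Of the 83, 5 were lower and 3 higher by that rule. Across all 33110 sites listed in both libraries without tetracycline, 2.58% were higher and 1.86% lower by it. At a threshold of 1.5-fold, the share of the higher sites above the median was 49.1% of 1650. The share of the lower sites below it was 46.0% of 1179. Few of the 2-fold differences with tetracycline were thus also present without it. The background of 2-fold differences in the pair without tetracycline was 5.03% of 78981 sites, which takes in both directions and sites listed once. At the 28592 shared sites that also had values without tetracycline, 708 were higher and 436 lower by the 2-fold rule. The 8 of 103 and 5 of 83 in the same direction were larger shares than these. The 3 of 103 and 3 of 83 in the opposite direction were larger shares too, and all of them rest on few sites.

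The same ratio moved together with that of 2 other lines. At 16557 sites the DNCHD4 over parental log2 ratio had a Pearson correlation of 0.51 (Spearman 0.54) with the log2 ratio of DNSnf2h over DNBrg1, all with tetracycline. These ratios share no library, but their points share site and density, and the DNSnf2h and DNBrg1 mutants were repressed by tetracycline too. The correlation rose with strength, from 0.16 in the class around 20.3 to 0.62 in the strongest. The former rests on 490 of 3394 sites, those that DNSnf2h and DNBrg1 also listed, and the latter on 3382 of 3393. The weaker classes are thus cut by the thresholds of those lists. Divided into 5 groups of sites by the DNSnf2h over DNBrg1 ratio, the median DNCHD4 over parental log2 ratio was -0.16, -0.02, 0.11, 0.21 and 0.33 in order. The comparison was chosen after the values had been seen.

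The ratio of tetracycline states within each of these lines was compared as well. The pair's ratio had a correlation of 0.42 with DNSnf2h with over without tetracycline (15590 sites), and of 0.06 with the same ratio in DNBrg1 (21200 sites). With DNSnf2h over DNBrg1 without tetracycline it was 0.36 (15582 sites). With the density of the site it was 0.10, and with the width of its hotspots 0.07 (33928 sites each). Which of the libraries in these ratios give rise to the correlations, and through what, was not tested.

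**Figure D4:**
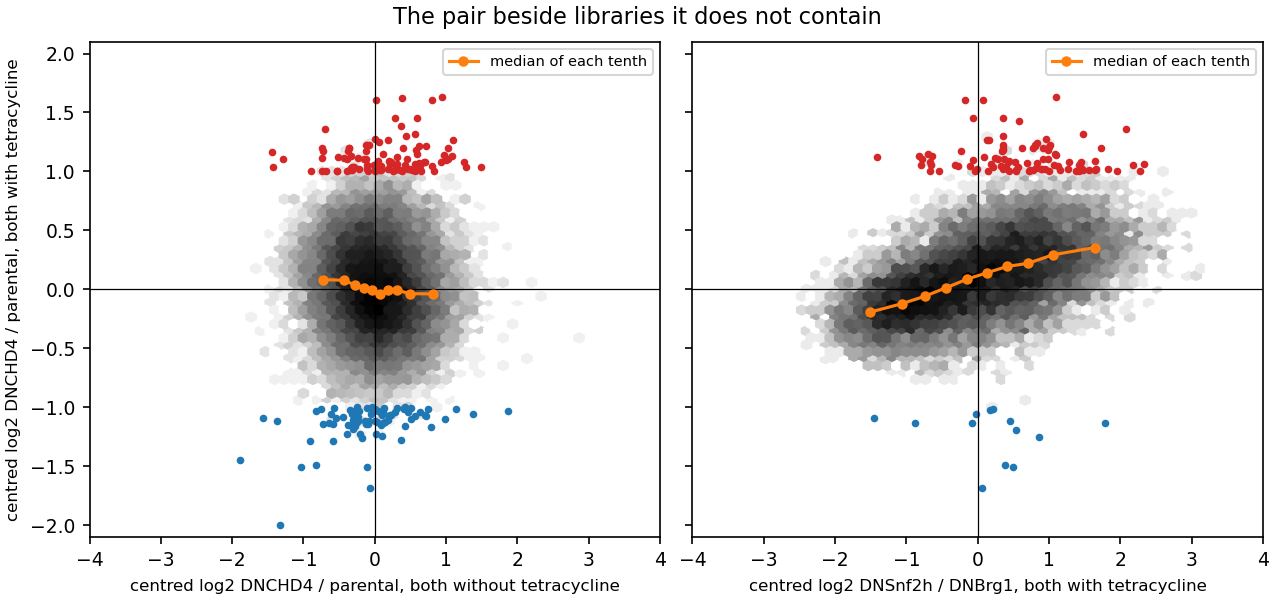
Centred log2 ratio of DNCHD4 over parental cells with tetracycline (y axes), against the same ratio without tetracycline (left) and against DNSnf2h over DNBrg1 with tetracycline (right), with shading for the number of sites, red and blue for sites at least 2-fold higher or lower, and the median of 10 groups of sites in orange. The orange line is nearly flat on the left (correlation -0.06) and rises on the right (0.51).

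The lists of these lines were also compared at the sites that differed. DNSnf2h cells with tetracycline listed 129 of the 138 higher sites (93.5%) but 16 of the 117 lower sites (13.7%), beside 58.6% of all shared sites. Higher sites were stronger on average, so this was also counted at like strength. Among sites with a mean density of 18.5 to 27.4, 63 of 71 higher and 3 of 18 lower sites were listed. Of sites there that stood above or below the median ratio by under 1.5-fold, 49.0% and 22.7% were listed. From 27.4 to 44.9 it was 45 of 46 and 5 of 18, beside 71.5% and 38.0%. Below 18.5 it was 7 of 76 lower sites, beside 12.6% of sites lower by under 1.5-fold. The low share of lower sites was thus in part that of weak sites below the median ratio. Without tetracycline DNSnf2h listed 47.8% of the higher and 17.9% of the lower sites, beside 55.1% of all shared sites. DNBrg1 with tetracycline listed 71.7% and 66.7%, beside 74.8%, and without it 47.8% and 67.5%, beside 68.6%. Without regard to strength, higher sites were thus listed more often than all shared sites in DNSnf2h with tetracycline, but not in the other 3 libraries. At like strength this contrast was weaker for DNSnf2h without tetracycline. From 18.5 to 27.4 that library listed 32.4% of higher sites. Of sites above and below the median by under 1.5-fold it listed 32.3% and 21.9%. From 27.4 to 44.9 it listed 56.5%, beside 57.5% and 40.4%.

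Named sites were those whose counting interval lay farthest from 1. On chromosome 7 from 103001035 to 103002535, peak density was 191 in DNCHD4 and 61.4 in parental cells with tetracycline, a centred ratio of 3.04-fold (2.61 to 3.56). Neither library had another hotspot within 50 kb. Without tetracycline the values were 77.9 and 34.2, still 1.74-fold. DNBrg1 had 213 with and 68.9 without tetracycline, and DNSnf2h 61.4 and 47.97. These are values as deposited, and the scales of the libraries differ, so levels are not ranked across lines.

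Further higher sites were weaker. On chromosome 7 from 56464720 to 56465536, DNCHD4 had 61.5 and parental cells 19.5, which is 3.07-fold (2.34 to 4.09). The values without tetracycline were 21.2 and 12.4, a centred ratio of 1.31. DNSnf2h listed the site with tetracycline at 22.4, and neither DNBrg1 library listed it. On chromosome 16 from 26082664 to 26083417 the values were 43.3 and 13.6, or 3.10-fold (2.24 to 4.37), and without tetracycline 37.01 and 14.7. This site kept a ratio of 1.93-fold there, the highest of the 5 named higher sites with values in both.

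The difference was smaller without tetracycline at every named higher site where it could be measured. On chromosome 7 from 29378368 to 29379351 the densities were 48.3 and 15.5, or 3.04-fold (2.24 to 4.20), but 14.7 and 11.1 without tetracycline, a centred ratio of 1.01. On chromosome 13 from 113044036 to 113044856 they were 73.2 and 26.04, or 2.74-fold (2.16 to 3.51), and 35.4 and 18.02 without it. On chromosome 8 from 86860045 to 86860940 they were 51.2 and 18.6, or 2.68-fold (2.03 to 3.61). Without tetracycline DNCHD4 had 11.2 at that site and the parental library did not list it. All 6 named higher sites were listed in DNSnf2h with tetracycline, at 11.8 to 61.4.

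The lowest ratio of a shared site was on chromosome 12 from 109045646 to 109046439, with 8.59 in DNCHD4 and 33.5 in parental cells, 4.00-fold lower (2.82 to 5.74). Without tetracycline the values were 9.20 and 17.8, still 2.52-fold lower. DNBrg1 had 21.7 and 10.2 there, and DNSnf2h did not list the site. On chromosome 16 from 6716101 to 6716831 the values were 30.95 and 82.5, or 2.73-fold lower (2.25 to 3.33), and 14.3 and 40.4 without tetracycline, 3.70-fold lower. At both sites DNCHD4 was under parental cells in each tetracycline state.

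One pair of lower sites lay close together. On chromosome 7 a site from 103291459 to 103292169 had 19.5 in DNCHD4 and 53.9 in parental cells, 2.84-fold lower (2.22 to 3.64). The next, from 103301241 to 103302092, had 11.1 and 34.7, 3.21-fold lower (2.33 to 4.45). Without tetracycline the former was 2.04-fold lower, and the latter stood at 17.6 and 14.2, a centred ratio of 1.05-fold lower. Both lie on the chromosome that holds the strongest higher site, so opposite differences occurred there in 1 region.

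On chromosome 4 from 86741935 to 86742632, DNCHD4 had 11.3 and parental cells 37.5, 3.41-fold lower (2.50 to 4.70). Without tetracycline parental cells had 14.7 and DNCHD4 did not list the site, nor did any library of the DNBrg1 and DNSnf2h lines. On chromosome 17 from 50559267 to 50559832 the values were 18.2 and 49.9, 2.80-fold lower (2.17 to 3.63), and 38.2 and 51.5 without tetracycline, 1.76-fold lower. DNBrg1 had 32.2 and 43.6 at that site, and DNSnf2h 13.8 and 23.6. At this site DNCHD4 was under parental cells in both tetracycline states. Relative to the median ratio, every named shared site with values in both libraries without tetracycline kept its direction. The ratios nearest the median there were 1.01-fold higher and 1.05-fold lower, both on chromosome 7.

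**Figure D5:**
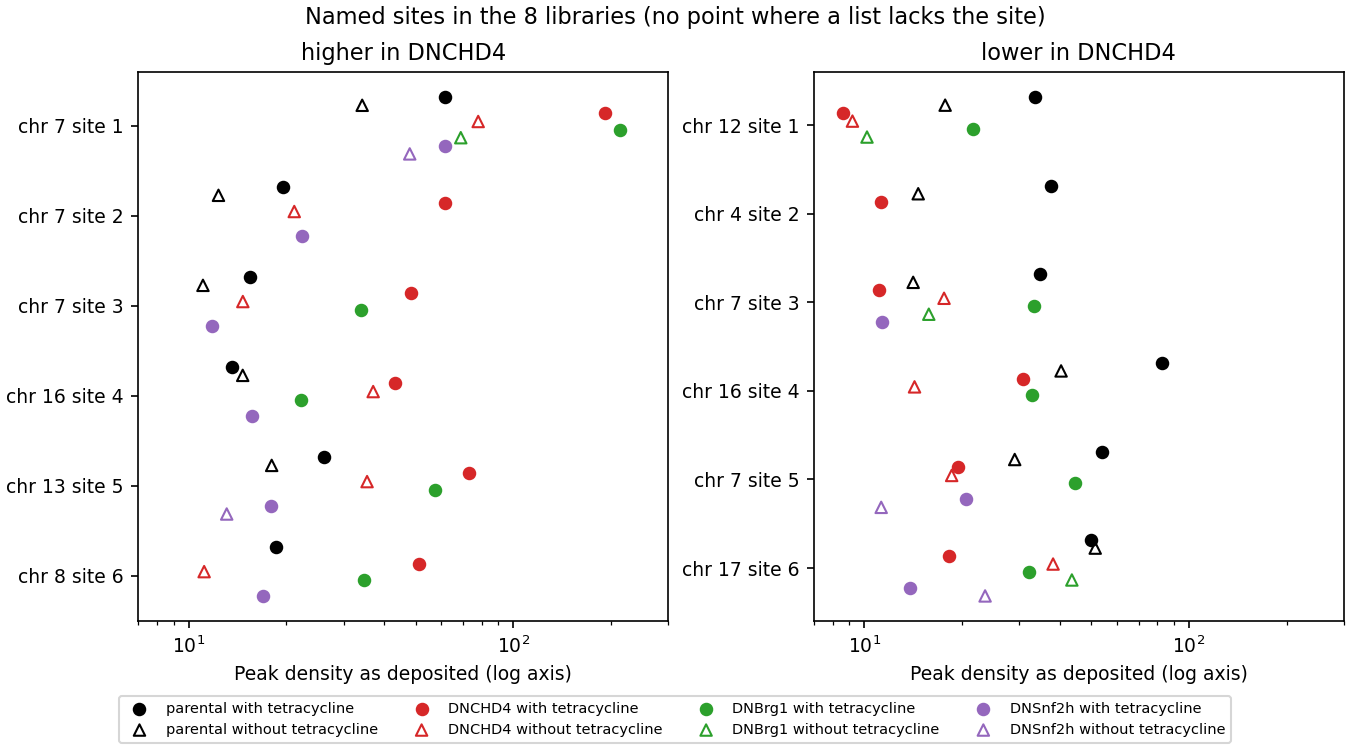
Peak density as deposited (log axis) of the 6 higher and 6 lower named sites in each of the 8 libraries, 1 site per row, with filled circles for libraries with tetracycline and open triangles for those without. The red and black circles are the pair compared. Red lies right of black by 2.68-fold to 3.10-fold on the left and left of it by 2.73-fold to 4.00-fold on the right, after centring.

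The bounds of sites listed once rest on the weakest hotspot of the whole other list, which may not be the limit at each place. On chromosome 6 from 113642372 to 113643089, DNCHD4 had 35.96 and the parental library listed nothing, at least 2.69-fold higher by that rule. Within 50 kb the lowest parental hotspot was at 18.3, and measured against it a 2-fold difference is not shown. The same holds on chromosome 8 from 126673775 to 126674420, at 33.99, where the lowest of 2 parental hotspots within 50 kb was at 69.1. On chromosome 1 from 88454354 to 88454837 the value was 33.6, and the lowest parental hotspot within 50 kb 26.04. On chromosome 6 from 136440582 to 136441240 DNCHD4 had 32.9 with and 121 without tetracycline, and the parental library without it had 18.02. This last site was 5.15-fold higher in the pair without tetracycline, where the mutant protein is induced. With tetracycline, the lowest parental hotspot within 50 kb of it was at 18.6, so measured against that a 2-fold difference is not shown.

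All 4 named sites listed in parental cells only were listed by the DNCHD4 library without tetracycline. On chromosome 10 from 80892842 to 80893366 the parental density was 28.5, at least 3.63-fold above DNCHD4. A DNCHD4 hotspot of 20.2 begins 189 bp from the end of this site, and the lowest within 50 kb was at 18.8. In the absence of tetracycline DNCHD4 had 30.7 at the site itself and parental cells did not list the site. On chromosome 3 from 94818450 to 94819033 parental cells had 26.7, at least 3.39-fold above DNCHD4. Without tetracycline parental cells had 22.4 there and DNCHD4 27.4. A hotspot of 421 in DNCHD4 begins 37 bp from its end, and the parental hotspot next to it had 412. The site lies on the flank of a strong hotspot that both lines share.

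The other 2 lie on chromosome 6 from 135367377 to 135367883 and on chromosome 8 from 124686825 to 124687356, both at 26.4 in parental cells and at least 3.36-fold lower in DNCHD4. The DNCHD4 library without tetracycline listed them at 20.8 and 27.8. Within 50 kb, the lowest hotspot of DNCHD4 with tetracycline was at 12.7 near the former and at 13.95 near the latter, so a fall measured against such values would be smaller.

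A dense run of hotspots at the start of chromosome 11, from 3023552 to 3287579, held 46 sites, 37 of them shared. The shared sites there had a median log2 ratio of -0.18, from -0.62 to 0.12, so none differed 2-fold. All 9 sites listed in DNCHD4 only were called higher, up to a density of 60.6. The parental library listed nothing under 23.9 in the run, so the bound from the whole list does not apply. Regions with at least 20 hotspots within 100 kb held 33 of the 71 higher and 39 of the 195 lower sites called by a bound, beside 6.75% of all sites.

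Along the genome the difference was small and had short range. The median log2 ratio per chromosome ran from -0.05 on chromosome 11 to 0.04 on chromosome 3. In 260 windows of 10 Mb with at least 20 shared sites it ran from -0.22 to 0.20, and 40 windows (15.4%) lay beyond 0.1. The lowest was chromosome 4 from 20 to 30 Mb (30 sites) and the highest chromosome 5 from 150 to 160 Mb (59 sites). Without tetracycline these windows stood at -0.10 and -0.07, so the latter did not keep its sign. No window held more than 4 higher or 3 lower shared sites.

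Neighbouring sites differed in a like direction to a small degree. The correlation of the log2 ratio between 2 shared sites was 0.15 under 5 kb apart (8764 pairs), 0.10 from 5 to 20 kb, 0.05 from 20 to 100 kb and 0.02 from 100 to 500 kb. These pairs share both libraries. Of the 521 sites that differed 2-fold, 44 had another in the same direction within 20 kb, and 6 had one in the opposite direction. The share over all sites was not counted. The 521 include 71 higher and 195 lower calls by a bound, of which 33 and 39 lay in dense regions. Near sites there are set against the same list-wide limit, so these counts do not show that differing sites cluster.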

How the data were processed

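DNase-seq hotspot lists of 8 libraries were used, with 1 library per group, grouped by the submitters' labels. CASAVA 1.6 and build mm9 are named in the submitters' processing notes. The program that called hotspots and its filters count as not given in the sources used here. Columns of highest and mean tag density hold, per the file headers, a coverage signal that the authors scaled. The deposited score (a z-score) and p-value of each hotspot were not used. All peak densities of a library were whole multiples of 1 step within 0.05 tags, and tags are densities divided by it. Total depth is unknown.

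Hotspots of the pair were merged at 1 bp, site values were the highest densities, and the median log2 ratio of shared sites was set to 0. A hotspot of another library was matched to a site where they overlapped by at least 50% of the shorter. This was set after the data were seen, because hotspots touching the edge of a site were taken otherwise. Counting intervals are exact binomial intervals on tags at 95%. Named sites were the 6 shared sites per direction with the largest nearer bound of that interval, and the 4 listed once per direction with the largest bound, at most 2 per 1 Mb and outside regions with 20 hotspots within 100 kb. The members and lists were chosen with earlier results of these data known. Calls were tested on simulated data with changes larger than 2-fold at strong sites and counting error alone. That says nothing of weak sites, changes near 2-fold or bounds. Software was scipy 1.17.1, pandas 2.3.3, numpy 2.4.6 and matplotlib 3.10.9, under Python 3.11.15.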

Additional observations from a re-analysis of the deposited data

How the results depend on the processing

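The 521 sites (209 higher, 312 lower) stayed within 1.5 times of these counts under as-deposited densities, centring on the strongest sites or within chromosomes, 50% overlap, 1 hotspot per list, autosomes only and without dense clusters. Sites listed in both libraries numbered 255 (138 higher, 117 lower). A common threshold gave 227 in all, with 67 lower. A threshold of 1.5-fold gave 4778 (2584 and 2194) and of 3-fold 35 (15 and 20). Mean in place of highest density gave 14985 (14167 and 818), because lists are not cut at a mean density and bounds then fail, and 552 (264 and 288) at sites listed in both. The SD of 0.37 was 0.41 with mean density and 0.37 without dense clusters. The SD in the strongest class was 0.25 with classes by DNCHD4 density, 0.24 by parental density and 0.27 with 5 classes, and in the weakest class 0.27, 0.42 and 0.38. The spread beyond counting error in the weakest class was 0.18 from the median absolute deviation. With densities as deposited, 82.6% of higher sites and 22.2% of lower sites kept their sign without tetracycline, since the median log2 ratio of that pair is 0.39. At 1.5-fold 49.1% of higher and 46.0% of lower sites kept it after centring. The correlation of -0.06 with the pair without tetracycline was -0.10 at sites above the median strength and -0.043 with mean density, and that of 0.51 with DNSnf2h over DNBrg1 was 0.55 and 0.47. At 1.5-fold, 82.9% of higher sites were listed in DNSnf2h with tetracycline. No paired analysis was possible because each group has 1 library and the numbers in the titles follow the tetracycline state. Depth limits weak sites most: the lowest hotspots rested on 45 and 42 tags.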
